A study of Mus musculus with 7 samples.

Results

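Integrins are adhesion receptors made of an alpha and a beta subunit, and the genes described here encode 10 subunits known from T cells that live in tissues: Itgae, Itgb7, Itga4, Itgb1, Itga1, Itga2, Itgal, Itgb2, Itgav and Itgb3. They were taken by gene symbol, and each was found once among the 19736 entries of the files. They were followed by RNA-seq in 3 CCR6+ and 4 CCR6- libraries of regulatory T (Treg) cells, all sorted as Foxp3-EGFP+, by a reporter of the Treg transcription factor Foxp3, from digests of the whole lung. All libraries are labelled Il4raR576, for the R576 form of the interleukin-4 receptor alpha chain, and the labels do not say whether on both alleles. The mice were females of 5 to 7 weeks given 100 µg of ovalbumin with a boost after 2 weeks, then an aerosol of 1% ovalbumin (30 min daily, 3 days, starting at day 29), and were killed at day 32. The labels name no mouse behind any library, so the p-values rest on the spread between libraries, and that spread may be technical.

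An integrin subunit reaches the cell surface only in a pair. The product of Itgae, CD103, pairs with that of Itgb7 and binds E-cadherin on epithelium, which holds lymphocytes in mucosal tissue. The product of Itga4 pairs with that of Itgb7 to bind MAdCAM in gut vessels, or with that of Itgb1 to bind VCAM on inflamed vessels and fibronectin. Itga1 and Itga2 encode the alpha chains of collagen receptors that also use Itgb1. Itgal and Itgb2 encode the LFA pair that binds ICAM molecules, and Itgav, with Itgb3 or other beta chains, a receptor for vitronectin and for latent TGF-beta. CCR6, the marker that divides the groups, is a chemokine receptor found on TH17 cells and on some Treg cells, and the title of the series concerns Treg cells with TH17 traits.

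The alpha subunits followed here share a short motif where the chain leaves the membrane. The beta subunits followed here share a motif in the cytoplasmic tail, the type of site to which talin and kindlin bind. These stretches are shown as features shared within each type of chain, apart from how the subunits were chosen. Whether these stretches define the family was not tested. They were read from GENCODE mouse release M21 transcripts (GRCm38, also called mm10), in the longest open reading frame that holds the motif. Capitals mark the codons of the motif: glycine, a pair of phenylalanines, lysine and arginine in the alpha chains, and asparagine, proline, any residue and then tyrosine or phenylalanine in the beta chains.
Itgae: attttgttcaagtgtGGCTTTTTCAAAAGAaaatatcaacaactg
Itga4: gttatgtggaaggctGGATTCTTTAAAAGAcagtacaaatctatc
Itga1: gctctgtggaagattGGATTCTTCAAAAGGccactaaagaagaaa
Itga2: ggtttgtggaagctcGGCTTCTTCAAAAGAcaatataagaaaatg
Itgal: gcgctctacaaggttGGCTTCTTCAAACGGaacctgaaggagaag
Itgav: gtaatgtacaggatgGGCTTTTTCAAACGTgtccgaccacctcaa
Itgb7: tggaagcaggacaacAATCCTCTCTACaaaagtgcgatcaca
Itgb1: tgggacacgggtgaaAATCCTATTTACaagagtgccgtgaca
Itgb2: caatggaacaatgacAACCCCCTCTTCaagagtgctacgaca
Itgb3: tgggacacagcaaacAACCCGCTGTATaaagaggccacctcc
The same alpha motif is written with 6 different sets of codons in the 6 alpha genes. The 4 beta genes use 4 different sets, but these do not all encode the same residues. Itgb1, Itgb2 and Itgb7 have 2 matches in the tail, of which the first is shown.

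The libraries held 11607780 to 47261246 reads. CCR6+ replicate 2, the shallowest, stood apart, and values without it are given beside the fitted differences. Its summed level of 9 Treg and CD4 T cell markers was 118026 normalised counts (reads divided by a size factor of the library), against 240604 to 309700 in the other 6 libraries. Its sums exceeded those of every other library for markers of macrophages (77634 against at most 18192), lung epithelium (79024 against at most 11765), endothelium and stroma (63360 against at most 10168), dendritic cells (102091 against at most 28604), granulocytes and mast cells (6169 against at most 832), platelets (908 against at most 230) and CD8 T, NK, gamma-delta T and innate lymphoid cells (18853 against at most 16690). For B cells it did not (5509 against at most 5840). CCR6- replicate 4, the deepest library, also lay far from its group and had the most genes at 0 (29.7%). Chi-square per degree of freedom, against read sampling noise, was 197 to 264 for its pairs with the other CCR6- libraries. Between those others it was 29.1 to 89.0, and for CCR6+ replicate 2 with the other CCR6+ libraries 164 and 251. The statistic was computed on recovered reads and grows with depth, so it does not rank the deepest library against the shallowest. Ccr6 stood at 5488 ± 2414 (SD, n = 3) in CCR6+ and 617 ± 312 (n = 4) in CCR6- libraries, and its groups did not overlap. Foxp3 was found in all 7 libraries, from 12206 in CCR6+ replicate 2 to 50875 in CCR6+ replicate 1. In such bulk samples fewer cells of a type and less RNA per cell cannot be told apart.

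Among the 10 subunits, Itgae stood furthest from the CCR6- libraries in CCR6+ replicates 1 and 3, and limma called no subunit with or without CCR6+ replicate 2. The mean of Itgae in those 2 libraries was 2.36 times the CCR6- mean, and that of its partner Itgb7 1.17 times. After adjustment over the 14582 genes tested, limma called 0 of the 10 subunits, and 0% of all genes. At an unadjusted limma p under 0.05 there was 1 of the 10, Itgb3, on the higher side, where 10.6% of all genes reached that level (8.22% higher and 2.35% lower in CCR6+). Run on the recovered reads, edgeR and DESeq2 likewise called 0 of the 10 after adjustment, where they called 0.0137% and 4.66% of all genes. Below 0.05 unadjusted they had 1 and 3 of the 10, and 15.5% and 21.5% of all genes. All differences below are log2 differences of (normalised count + 1), CCR6+ minus CCR6-. They were positive for 7 subunits and negative for 3, their median being 0.14, while 56.9% of all genes were positive and the median gene stood at 0.10. The groups overlapped for all 10, while 13.5% of all genes had groups without overlap (7.96% higher and 5.53% lower in CCR6+).

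**Figure D1:**
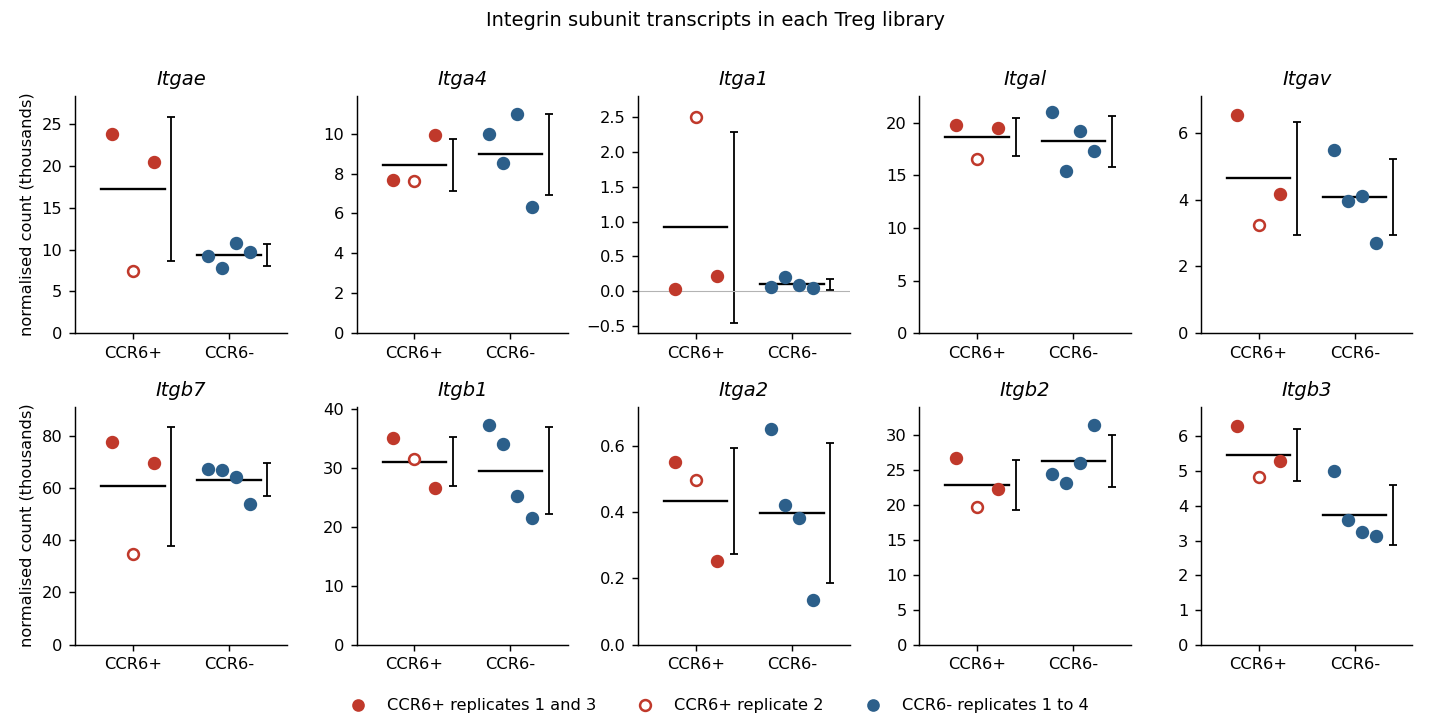
Normalised counts (linear axes, scaled as labelled) of the 10 integrin subunits in each library, with the group mean as a line and the SD as a bar beside it. Itgae stood at 23786 and 20537 in CCR6+ replicates 1 and 3, above all CCR6- libraries, and at 7477 in CCR6+ replicate 2, the open circle, which was also the lowest library for Itgb7.

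Itgae lies on chromosome 11 from 73090583 to 73147446 (mm10, plus strand). Its normalised counts were 23786, 7477 and 20537 in CCR6+ replicates 1 to 3 and 9203, 7753, 10844 and 9685 in CCR6- replicates 1 to 4. Thus CCR6+ replicates 1 and 3 lay above every CCR6- library and CCR6+ replicate 2 lay below all of them. The log2 difference was 0.73 (SE 0.43, 95% interval -0.30 to 1.76, limma adjusted p = 0.526). Omitting CCR6+ replicate 2 gave 1.25 (SE 0.20, 95% interval 0.73 to 1.76), which ranked at place 54 of all genes by limma p and had an adjusted p of 0.363. In that comparison limma called 0% of all genes, and 6.89% were under an unadjusted 0.05 (4.57% higher and 2.32% lower). DESeq2 without that library called Itgae (log2 difference 1.25, adjusted p = 2.75e-08) and 1.26% of all genes, whereas edgeR did not call it (1.19, adjusted p = 0.148) and called 0.0137% of all genes. Limma with arrayWeights, which lets libraries differ in weight, called Itgae with all 7 libraries (1.07, adjusted p = 0.0178). In that setting it called 2486 of the 14582 genes tested. Over all 24 alternatives the adjusted p of Itgae ran from 2.75e-08 to 0.875.

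The summed Treg and CD4 T cell markers of CCR6+ replicate 2, the lowest of the 7 libraries, moved with this value. Itgae was therefore also read relative to those markers, by subtracting in each library the mean log2 value of the 9 markers, a scaling chosen after the values were seen. It raises every gene in CCR6+ replicate 2 and moves the median log2 difference of all genes from 0.10 to 0.31. It reads the Itgae of a library as RNA of its T cells, which was not tested. Itgae then stood at 18234, 15019 and 17101 in CCR6+ replicates 1 to 3 and at 8858, 6894, 10070 and 9509 in CCR6- replicates 1 to 4, and the groups did not overlap. The means were 16785 ± 1631 (SD, n = 3) and 8833 ± 1384 (n = 4), a ratio of 1.90. Of all genes, 5.62% were higher and 0.288% lower with no overlap under this scaling, and of the 10 subunits Itgae was the one whose groups parted. Its log2 difference was 0.94 (SE 0.31, limma adjusted p = 0.875), so it was not called here either.

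Itgb7 encodes the beta chain that CD103 requires. It lies on chromosome 15 from 102215995 to 102231944 (minus strand). It stood at 77756, 34701 and 69601 in CCR6+ replicates 1 to 3 and at 67418, 67071, 64354 and 53813 in CCR6- replicates 1 to 4. CCR6+ replicates 1 and 3 were the highest libraries and CCR6+ replicate 2 was the lowest. The log2 difference was -0.14 (SE 0.31, 95% interval -0.89 to 0.62, limma adjusted p = 0.843), and 0.23 (SE 0.18, adjusted p = 0.878) without CCR6+ replicate 2, so its sign depended on that library. Relative to the T cell markers the groups overlapped, at 62420 ± 6357 (SD, n = 3) against 59277 ± 4947 (n = 4).

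The ratio of Itgae to Itgb7 within a library does not depend on the size factor. Per kilobase of annotated exon it was 0.185, 0.130 and 0.178 in CCR6+ replicates 1 to 3 and 0.0825, 0.0699, 0.102 and 0.109 in CCR6- replicates 1 to 4. Every CCR6+ library, replicate 2 included, thus lay above every CCR6- library. All 9 dendritic cell markers were highest in CCR6+ replicate 2, and which cells made its Itgae was not tested. The mean log2 ratio was -2.62 ± 0.28 (SD, n = 3) in CCR6+ and -3.48 ± 0.29 (n = 4) in CCR6- libraries, a difference of 0.86, or 1.02 without CCR6+ replicate 2. Of the ratios of Itgae to each other tested gene, 7.5% were higher in CCR6+ with no overlap, and 65.8% without CCR6+ replicate 2, so in those 6 libraries the parting is common to most partners of Itgae. For the ratios of Itgb7 to each other gene the shares were 0.59% and 19.9%. The ratios are a description and were not tested. In the other 7 pairs of subunits examined the groups overlapped.

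**Figure D2:**
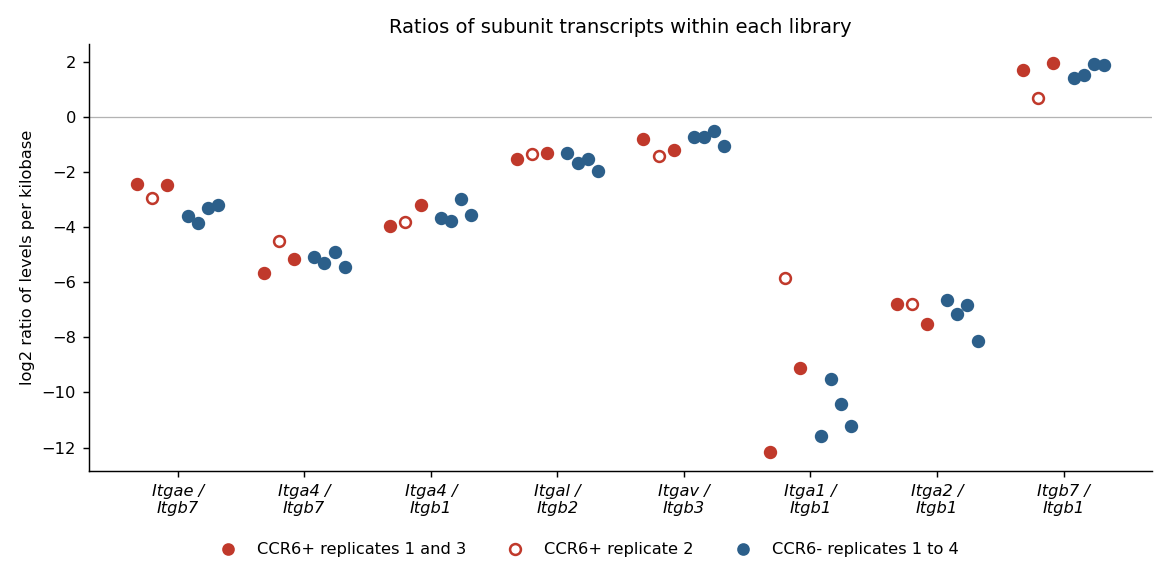
Log2 ratio of the levels per kilobase of exon for 8 pairs of subunits, each point 1 library and the open circles CCR6+ replicate 2. For Itgae over Itgb7 the 3 CCR6+ libraries (ratios of 0.130 to 0.185) lay above the 4 CCR6- libraries (0.0699 to 0.109), and the groups overlapped for the other 7 pairs.

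Itga4 and Itgb1, whose products form the VCAM receptor, overlapped between the fractions. Itga4 lies on chromosome 2 from 79255426 to 79333123, and 8.04% of its exonic bases overlap Cerkl on the opposite strand. It stood at 7689, 7634 and 9955 in CCR6+ and at 10002, 8540, 10991 and 6305 in CCR6- libraries, with the CCR6+ libraries inside the CCR6- range. The difference was -0.07 (SE 0.25, 95% interval -0.66 to 0.53, limma adjusted p = 0.900), and -0.0036 (SE 0.29) without CCR6+ replicate 2. Equal library totals and quantile normalization turned its sign. Itgb1, on chromosome 8 from 128685654 to 128733200, stood at 35091, 31557 and 26665 in CCR6+ and at 37330, 34044, 25167 and 21548 in CCR6- libraries. Again the CCR6+ libraries lay inside the CCR6- range, with a difference of 0.10 (SE 0.25, 95% interval -0.50 to 0.71, limma adjusted p = 0.853), and 0.086 (SE 0.30) without CCR6+ replicate 2. Its sign turned with edgeR (-0.0020). The ratio of Itga4 to Itgb7 per kilobase was lowest in CCR6+ replicate 1, at 0.0196, and highest in CCR6+ replicate 2, at 0.0436, with the CCR6- libraries between.

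The collagen receptor chains were the least abundant per length. Itga1, on chromosome 13 from 114953096 to 115101964, stood at 35.2, 2498 and 220 in CCR6+ replicates 1 to 3 and at 55.8, 210, 84.6 and 41.3 in CCR6- replicates 1 to 4. CCR6+ replicate 2 was far above the other 6 libraries, and those 6 overlapped. The difference was 1.74 (SE 1.43, limma adjusted p = 0.597) with that library and 0.14 (SE 0.96, adjusted p = 0.988) without it. With all libraries edgeR gave 3.06 (adjusted p = 0.319) and DESeq2 3.21 (adjusted p = 0.0627), and limma without CCR6+ replicate 1 gave 3.19 (adjusted p = 0.184). The endothelial and stromal markers moved with Itga1, all 14 being highest in CCR6+ replicate 2, and their part in its value was not tested. Itga2, next to Itga1 on chromosome 13 from 114833081 to 114932100, stood at 551, 498 and 252 in CCR6+ and at 652, 420, 383 and 133 in CCR6- libraries. The groups overlapped, with a difference of 0.25 (SE 0.59, 95% interval -1.17 to 1.68, limma adjusted p = 0.844), and 0.11 (SE 0.71) without CCR6+ replicate 2. Quantile normalization turned it to -0.27. Unlike Itga1, it was not highest in CCR6+ replicate 2.

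Itga2 was compared with the 9 other members only, and was most like Itgb1, the beta chain its product pairs with. The Pearson r of log2 values was 0.90 over all 7 libraries and 0.90 over the 6 without CCR6+ replicate 2. This describes libraries that share their sort and scaling, and the pair was picked after the values were seen. The 250 bases before the RefSeq start of each (GRCm38.p6) are shown in the direction of transcription, since these members moved together. Capitals mark letters that match TGTGGT (a RUNX motif), CAGAC (a SMAD motif) or AGGTCA (a ROR motif) on either strand, with no overlap between matches.
Itga2, chr13:114932101-114932350, minus strand: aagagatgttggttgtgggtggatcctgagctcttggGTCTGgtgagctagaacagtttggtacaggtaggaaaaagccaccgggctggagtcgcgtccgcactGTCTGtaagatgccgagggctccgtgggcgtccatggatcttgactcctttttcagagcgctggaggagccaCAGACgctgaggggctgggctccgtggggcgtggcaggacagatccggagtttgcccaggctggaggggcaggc
Itgb1, chr8:128685404-128685653, plus strand: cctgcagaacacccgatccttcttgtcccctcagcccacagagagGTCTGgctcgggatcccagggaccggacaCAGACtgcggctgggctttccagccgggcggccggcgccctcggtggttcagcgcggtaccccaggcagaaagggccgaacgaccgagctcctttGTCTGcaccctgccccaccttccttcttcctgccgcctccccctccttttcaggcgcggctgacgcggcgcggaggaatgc
Each window held 3 matches to CAGAC and none to the other motifs. Of 32851 windows of the same length, 42.2% held CAGAC at least once, 14.0% TGTGGT and 14.0% AGGTCA. The share with 3 matches was not counted. Matches to any of the motifs numbered 2, 2, 1 and 0 in the windows of Itgb7, Itga4, Itga1 and Itgav. No window was available for Itgae, Itgal, Itgb2 and Itgb3, so these were not examined. A match of letters is a description and not a binding site.

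With all 7 libraries the LFA chains had the narrowest intervals of the 10. Itgal, on chromosome 7 from 127296260 to 127335138, stood at 19759, 16551 and 19545 in CCR6+ and at 21022, 15441, 19252 and 17310 in CCR6- libraries. With the CCR6+ libraries inside the CCR6- range, the difference was 0.03 (SE 0.18, 95% interval -0.40 to 0.46, limma adjusted p = 0.935), and 0.12 (SE 0.19) without CCR6+ replicate 2. TMM scaling turned its sign. Itgb2, on chromosome 10 from 77530252 to 77565708, stood at 26673, 19624 and 22274 in CCR6+ and at 24491, 23099, 25958 and 31506 in CCR6- libraries, with CCR6+ replicate 2 lowest and CCR6- replicate 4 highest. The difference was -0.20 (SE 0.19, 95% interval -0.67 to 0.26, limma adjusted p = 0.634), and -0.098 (SE 0.21) without CCR6+ replicate 2. Quantile normalization turned its sign.

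Itgb3, the beta chain of the vitronectin receptor, had the smallest p of the 10 with all libraries. It lies on chromosome 11 from 104608000 to 104670476 and stood at 6297, 4818 and 5294 in CCR6+ replicates 1 to 3 and at 5006, 3594, 3234 and 3116 in CCR6- replicates 1 to 4. Only CCR6- replicate 1 reached into the CCR6+ range, between replicates 2 and 3. The means were 5469 ± 755 (SD, n = 3) and 3737 ± 870 (n = 4). The difference was 0.57 (SE 0.23, 95% interval 0.02 to 1.11, limma adjusted p = 0.471). Omitting CCR6+ replicate 2 gave 0.65 (SE 0.26, adjusted p = 0.724), and the groups no longer overlapped. Platelets and megakaryocytes also carry Itgb3, and Itga2b is among the 9 markers taken for these cells. The summed level of the 9 was 37.8, 908 and 230 in CCR6+ replicates 1 to 3. In CCR6- libraries it was 26.4 to 76.6, and Treml1 was at 0 in 6 libraries. Itgb3 was highest in CCR6+ replicate 1, where Itga2b, its partner on platelets, was at 0. The part of such cells in its value was not tested.

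Itgav, the alpha partner of Itgb3 outside platelets, lies on chromosome 2 from 83724397 to 83806916. It stood at 6515, 3246 and 4151 in CCR6+ and at 5481, 3948, 4119 and 2708 in CCR6- libraries. CCR6+ replicate 1 was highest and CCR6- replicate 4 lowest, and the groups overlapped, with a difference of 0.17 (SE 0.34, 95% interval -0.64 to 0.99, limma adjusted p = 0.811), and 0.40 (SE 0.35) without CCR6+ replicate 2. The ratio of Itgav to Itgb3 per kilobase ran from 0.370 to 0.568 in CCR6+ and from 0.477 to 0.699 in CCR6- libraries.

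With CCR6+ replicate 2 omitted, the groups did not overlap for 3 of the 10 subunits, Itgae, Itgb3 and Itgb7, all higher in CCR6+. Of all genes, 19.2% then had groups without overlap (10.5% higher and 8.62% lower). Itgae and Itgb3 were the 2 subunits at an unadjusted limma p under 0.05. Of the 10 differences 8 were positive, as were 53.6% of all genes, and their median was 0.13, against 0.04 for all genes.

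**Figure D3:**
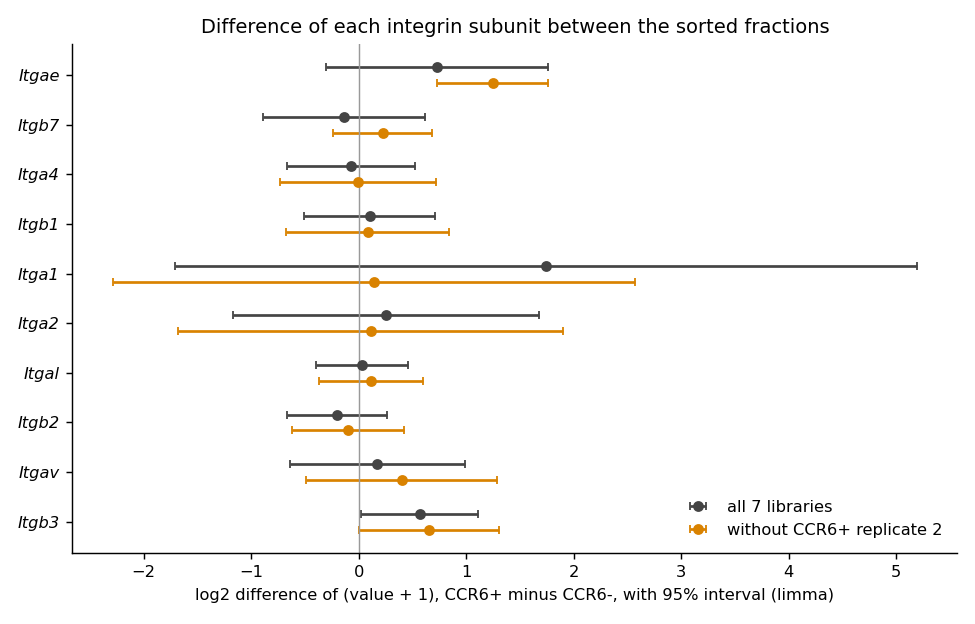
Log2 difference of each subunit, CCR6+ minus CCR6-, with its 95% interval from limma, for all 7 libraries (dark) and without CCR6+ replicate 2 (orange). The value of Itgae went from 0.73 to 1.25 with a narrower interval, and that of Itga1 from 1.74 to 0.14.

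Levels of different genes were compared as RPKM, that is, reads per kilobase of exon scaled to the reads of the library. Itgb7 was the most abundant subunit at 767 ± 165 (SD, n = 7), and its lowest library lay above the highest of every other subunit. Itgb2 followed at 277 ± 26.7 and Itgb1 at 255 ± 52.6, with ranges that overlapped, then Itgal at 96.3 ± 11.2 and Itgae at 95.4 ± 49.0, which overlapped as well. In the CCR6+ libraries Itgae averaged 131 ± 60.5 (n = 3) and in the CCR6- libraries 68.5 ± 10.02 (n = 4), and Itgal 100.5 ± 5.61 and 93.2 ± 14.1. Itgb3 at 26.2 ± 7.34, Itga4 at 21.5 ± 4.53 and Itgav at 13.8 ± 3.97 formed a lower tier in which neighbours overlapped. Itga2 at 2.00 ± 0.868 and Itga1 at 0.898 ± 1.85 were lowest, and their ranges overlapped. Of the 5 most abundant subunits Itgae had the widest spread relative to its mean. Exon lengths are unions over annotated transcripts, and the longest transcript in their place changes the mean log2 ratio of Itga4 to Itgb7 from -5.15 to -4.68. The order of Itgb3 and Itga4 also depends on it. In CCR6- replicate 1 they stood at 848 and 716 normalised counts per kilobase by union, and at 866 and 1024 by longest transcript. In CCR6+ replicate 1 Itgb3 stayed above Itga4 by longest transcript (1089 against 787).

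**Figure D4:**
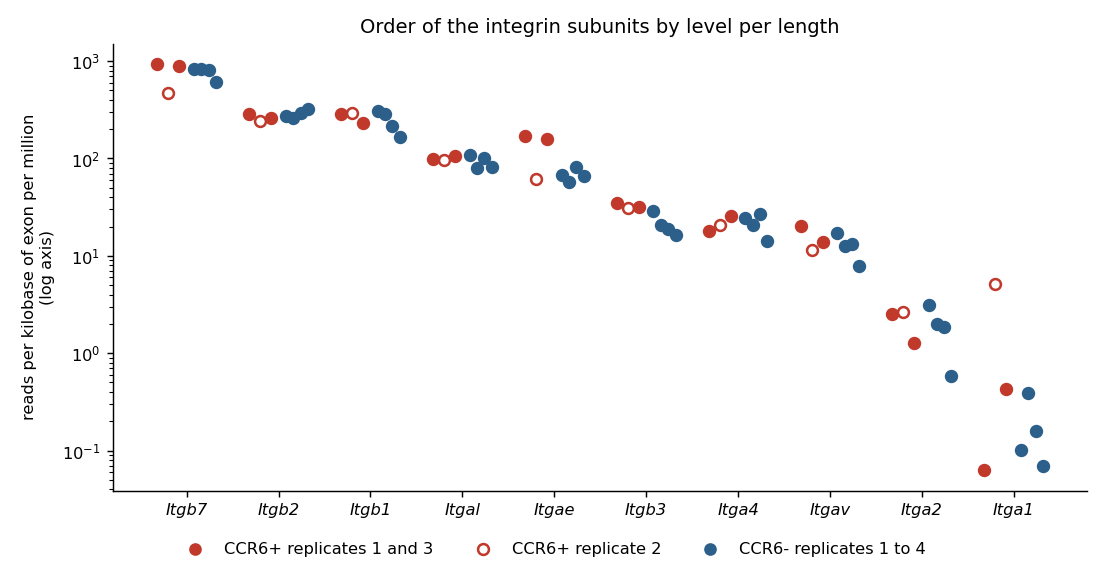
Reads per kilobase of exon, scaled to library size (log axis), of each subunit in each library, ordered by the mean. Itgb7 was highest in all 7 libraries (474 to 929), and Itga1 ranged from 0.0627 to 5.09, its highest value being that of CCR6+ replicate 2.

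The genes most like Itgae over the 7 libraries, by Pearson r of log2 values among 12367 tested genes with a mean of at least 50, were Atp6v1g2, a subunit of the vacuolar proton pump (0.98), Il17rb, a receptor chain for IL-25 (0.97), Wisp1 (0.97), Tmem198 (0.97) and Pcgf2, a Polycomb gene (0.96). Il17rb stood at 1168, 444 and 949 in CCR6+ replicates 1 to 3 and at 383 to 640 in CCR6- libraries, so CCR6+ replicate 2 lay inside the CCR6- range for it, where it lay below that range for Itgae. Over the 6 libraries without CCR6+ replicate 2 the list was Il23r, a chain of the IL-23 receptor (0.99), Mafg (0.99), Atp6v1g2 (0.99), Efcab14 (0.99) and Siglece (0.99). Il23r stood at 281, 237 and 196 in CCR6+ and at 1.89, 0, 9.20 and 2.71 in CCR6- libraries. The mean of at least 50 was taken over all 7 libraries for this list too, and Il23r reached it through the CCR6+ libraries. Siglece (53.3, 369 and 40.6 in CCR6+, 10.4 to 13.8 in CCR6- libraries) reached it only through CCR6+ replicate 2. Ccr6 itself had 0.68 over 7 and 0.87 over 6 libraries. Of the members, Itgb7 was nearest to Itgae over 7 libraries (0.61) and Itgb3 over 6 (0.75). These points share their groups and scaling.

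Among the other members, over 7 libraries, Itgal was nearest to Itgav (0.66), Itgav to Itga2 (0.72), Itgb3 to Itgav (0.70), Itgb7 to Itgav (0.68), Itga4 to Itgal (0.50), Itgb2 to Itgb7 (0.41) and Itga1 to Itga2 (0.18). Only Itgae with Itgb7, Itga2 with Itgb1 and Itgb3 with Itgav were nearest to a subunit their product pairs with. Over the 6 libraries Itgav and Itgb7 were nearest to each other (0.91), and no member was like Itgb2 (at most -0.07, Itgal).

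Of the 16 other integrin subunits, 15 were tested, 13 of them positive, and their median log2 difference was 1.25, or 0.31 when CCR6+ replicate 2 was omitted. That library held the highest value for 12 of the 15. Limma called 0 of 15 (3 at an unadjusted p under 0.05), edgeR 0 (4) and DESeq2 2 (9), Itga3 and Itga11. Of all genes, 10.6%, 15.5% and 21.5% were at that level by limma, edgeR and DESeq2, and DESeq2 called 4.66%. Without CCR6+ replicate 2 DESeq2 still called Itga3 (log2 difference 1.45, adjusted p = 0.0414), and 1.26% of all genes. Itga11 then had no adjusted p. Itga3, a laminin receptor chain, stood at 737, 1235 and 405 in CCR6+ and 278, 218, 203 and 146 in CCR6- libraries, without overlap (log2 difference 1.79, SE 0.42, limma adjusted p = 0.397, and 0.551 without CCR6+ replicate 2). Itga6, another laminin receptor chain, stood at 7591, 4547 and 7576 in CCR6+ and at 10001, 8494, 11498 and 17574 in CCR6- libraries. All 3 CCR6+ libraries were thus below all 4 CCR6- libraries, with a difference of -0.84 (SE 0.33, limma adjusted p = 0.467), and -0.59 without CCR6+ replicate 2.

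Itgb8, which pairs with Itgav to activate TGF-beta, stood at 1330, 887 and 1908 in CCR6+ and 987, 826, 1133 and 1121 in CCR6- libraries. The groups overlapped through CCR6+ replicate 2, with a difference of 0.38 (SE 0.29, limma adjusted p = 0.586), or 0.66 (adjusted p = 0.692) without it. Itgb5 and Itga5 were highest in CCR6+ replicate 2, at 889 and 1549, against at most 227 and 507 in the other libraries. Their differences were 1.55 (SE 0.65) and 1.22 (SE 0.73), and 0.75 and 0.57 without that library. Itga7 stood at 520 ± 214 (SD, n = 3) against 555 ± 219 (n = 4). The myeloid chains Itgax and Itgam had their highest values in CCR6+ replicate 2 too, at 1176 and 469, as had Itga2b of platelets at 262. Of the exonic bases of Itgam 68.7% overlap another annotated gene on the same strand, which may take part of its reads. The 12 macrophage markers, all highest in the same library, include Itgam and Itgax themselves. The part of such cells was not tested.

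Of 18 genes of integrin ligands, 17 were tested, 15 positive and 2 negative. Their median log2 difference was 1.87, or 1.21 with CCR6+ replicate 2 omitted. Limma and edgeR called 0 of them (6 and 10 at an unadjusted p under 0.05), where 10.6% and 15.5% of all genes were at that level. DESeq2 called 6, against 4.66% of all genes, and 0 without CCR6+ replicate 2, where 2 had no adjusted p. Spp1, which encodes osteopontin, stood at 1119, 1572 and 624 in CCR6+ and 539, 530, 305 and 196 in CCR6- libraries, without overlap, with a difference of 1.51 (SE 0.49, limma adjusted p = 0.445) and 1.21 without CCR6+ replicate 2. F11r, a ligand of LFA, stood at 151, 2263 and 319 against 72.4 to 95.3, and Vtn, vitronectin, at 12.03, 521 and 45.7 against 0 to 17.5. Omitting CCR6+ replicate 2 moved F11r from 2.47 to 1.35 and Vtn from 4.41 to 2.94. For Lrrc32, the Treg anchor of latent TGF-beta, the difference was -0.76 (SE 0.47, limma adjusted p = 0.540), and -0.24 (SE 0.32) without CCR6+ replicate 2. For Icam2 it was -0.056 (SE 0.38, limma adjusted p = 0.951), and -0.46 (SE 0.29, adjusted p = 0.851) without that library, when the CCR6+ libraries lay below all CCR6- libraries. Cdh1 (E-cadherin), named after its values were seen because it is the ligand of CD103, stood at 491, 2539 and 220 in CCR6+ and 153, 222, 109 and 108 in CCR6- libraries, a difference of 2.196 (SE 0.83, limma adjusted p = 0.463) and 1.21 without CCR6+ replicate 2. Of 12 epithelial markers, Cdh1 among them, 9 were likewise highest in CCR6+ replicate 2. Which cells made Cdh1 was not tested.

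Of 36 genes of integrin activation, 35 were tested, 16 positive and 19 negative, their median being -0.01, or 0.02 with CCR6+ replicate 2 omitted. Limma called 0 of 35 (4 at an unadjusted p under 0.05), edgeR 0 (6) and DESeq2 3 higher (Rapgef3, Tln2 and Parva) and 1 lower (6 in all at that level). These shares compare with 10.6%, 15.5% and 21.5% of all genes at an unadjusted p under 0.05 and 4.66% called by DESeq2. The lower one was Rasgrp2, the exchange factor that turns on Rap and thereby LFA, at 1918, 2714 and 2890 in CCR6+ and 3961, 3571, 3906 and 6549 in CCR6- libraries, without overlap. Its difference was -0.82 (SE 0.28, limma adjusted p = 0.449, DESeq2 adjusted p = 0.0436), and -0.89 without CCR6+ replicate 2, where DESeq2 no longer called it. Rassf5 and Skap1, adaptors on the same route, had -0.39 (SE 0.23) and -0.42 (SE 0.25) and overlapped, with -0.27 and -0.22 when CCR6+ replicate 2 was omitted.

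On the positive side Rapgef3, another exchange factor of Rap, stood at 485, 955 and 417 in CCR6+ and 220, 106, 130 and 66.3 in CCR6- libraries, without overlap (log2 difference 2.27, SE 0.48, limma adjusted p = 0.374, DESeq2 adjusted p = 0.00373). Omitting CCR6+ replicate 2 gave 1.91 (limma adjusted p = 0.536), and DESeq2 still called it (adjusted p = 0.0466). Of its exonic bases 6.11% overlap genes on the opposite strand. Tln2 and Parva had 4.02 (SE 1.07) and 5.92 (SE 1.71), were highest in CCR6+ replicate 2, at 357 and 1303, and had no overlap. In CCR6- libraries Tln2 stood at 1.35 to 31.3 and Parva at 0 to 53.3, so these differences rest on low values. Omitting CCR6+ replicate 2 gave 3.47 and 4.93 by limma. DESeq2 then called neither Tln2 (adjusted p = 0.370) nor Parva (adjusted p = 0.601). Tln1 and Fermt3, the talin and kindlin of lymphocytes, named after their values were seen, had 0.18 (SE 0.27) and -0.36 (SE 0.22) and overlapped, with 0.23 and -0.17 without CCR6+ replicate 2. Ilk, the gene not tested, was below the filter, and 89.7% of its exonic bases overlap genes on the opposite strand.

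**Figure D5:**
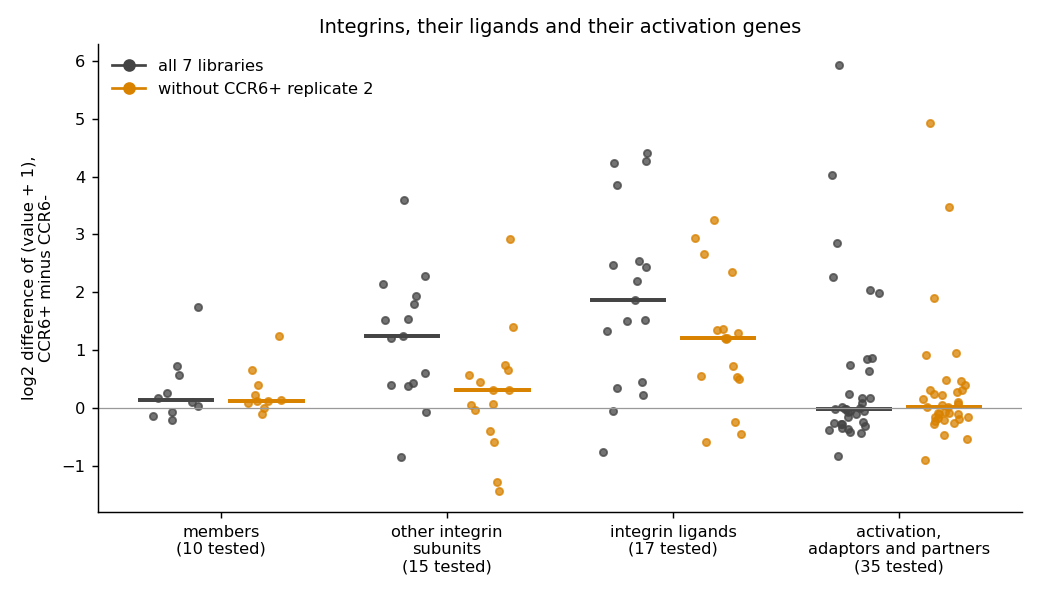
Log2 difference, CCR6+ minus CCR6-, of each tested gene in 4 lists, with the median as a line, for all 7 libraries (dark) and without CCR6+ replicate 2 (orange). The medians of the other subunits and of the ligands, 1.25 and 1.87, came down to 0.31 and 1.21 without that library, while those of the 10 members were 0.14 and 0.13 and those of the activation genes -0.01 and 0.02.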

How the data were processed

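The 7 libraries were made, per the labels' protocols, with SMART-Seq v4 cDNA and KAPA Hyper Prep kits, which are not said there to keep strand. The authors deposited 1 normalised signal per gene and library. Its values are whole multiples of a library's step (100% within 0.001 reads), so they were read as counts divided by a size factor. The submitters' processing notes name STAR 2.5.1b, HTSeq 0.6.1p1, DESeq2 1.6.3 and mm10, without roles. The annotation and strand setting were not given in these sources.

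Division by the step recovered 11607780 to 47261246 reads per library. Filtering on values of 10 or more in 3 or more libraries left 14582 genes, all 10 members among them. These were fitted with limma 3.58.1 (R 4.3.3) on log2(value + 1), which understates changes of low genes. There was no covariate, tests were two-sided, and Benjamini-Hochberg adjustment ran over all genes at 0.05. Alternatives were edgeR 4.0.16 and DESeq2 1.42.0 on recovered reads, pseudocounts of 0.5 and 8, no filter or a mean of 100, equal totals, TMM, quantile normalization, limma-trend, arrayWeights, a replicate block and the omission of each library. EdgeR, DESeq2 and TMM without CCR6+ replicate 2 and the T cell scaling were added after the data were seen. The fits were tested on simulated counts.

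Named were the members, per list and direction the 3 genes of smallest p with a mean of 50 or more, Itga6, Itgb8, Itgam, Itgax and Itga2b, the 5 genes most like Itgae, and Ccr6 and Foxp3. Cdh1, Tln1 and Fermt3 were named for their roles, Itga11 as a DESeq2 call and Ilk as not tested, outside that rule. The members and lists were chosen with earlier results of these data known. Positions are from GENCODE M21, 1-based. No pair of libraries within a group agreed within read sampling noise.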

Additional observations from a re-analysis of the deposited data

How the results depend on the processing

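Itgae and Itgb3 were positive under all 24 alternatives, from 0.41 to 1.25 and from 0.42 to 0.78 on the log2 scale. Itgae was called with arrayWeights (1.07, adjusted p = 0.0178), where it was 1 of the 10 members called, and by DESeq2 with CCR6+ replicate 2 left out (1 of 10), and in no other alternative. Limma, which called 0 genes, called 1 higher with a pseudocount of 0.5 or TMM scaling, and 2 with a pseudocount of 8, a filter on means of 100 or more, or equal library totals. It called 2 higher and 2 lower after quantile normalization, 8 and 2 with limma-trend and robust moderation, and 1458 and 1028 with arrayWeights. EdgeR called 2 higher with and without CCR6+ replicate 2. DESeq2 called 543 higher and 136 lower, and 104 and 80 without that library.

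Signs turned as follows. With equal library totals Itga4 was 0.017, and with TMM Itgal -0.052. Quantile normalization moved the median of all genes from 0.10 to -0.08 and gave -0.27 for Itga2, 0.099 for Itga4 and 0.014 for Itgb2. ArrayWeights gave -0.12 for Itgav, -0.83 for Itga2, -0.18 for Itgb1 and 0.087 for Itgb7. EdgeR gave -0.045 for Itgal and -0.0020 for Itgb1, and without CCR6+ replicate 2 -0.039 for Itga2 and 0.17 for Itgb7. Without that library Itgb7 was 0.23 by DESeq2 and 0.17 with TMM. T cell scaling gave 0.14 for Itga4, 0.0072 for Itgb2 and 0.074 for Itgb7, and without CCR6+ replicate 2 -0.12 for Itgal, -0.093 for Itga1, -0.12 for Itga2 and -0.15 for Itgb1. The cause of these changes was not tested.

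Leaving out each library in turn gave 0 to 1 genes called higher, the 1 without CCR6+ replicate 1. The differences then ran from -0.044 to 0.12 for Itgal, -0.10 to 0.40 for Itgav, -0.36 to 0.23 for Itgb7, -0.23 to 0.039 for Itga4, -0.20 to 0.60 for Itga2, -0.038 to 0.23 for Itgb1 and 0.14 to 3.19 for Itga1, whose lowest and highest came without CCR6+ replicates 2 and 1. A replicate block over the 6 libraries with shared numbers, which drops CCR6- replicate 4, called 0 genes. It gave -0.0073 for Itgav, -0.20 for Itga2 and -0.038 for Itgb1. These are the same differences as those from omitting CCR6- replicate 4 without a block. Same-numbered libraries did not deviate together (r of -0.13, -0.11 and 0.34), and of the CCR6+ libraries replicate 3 alone correlated best with its own number. With the longest transcript as length, the mean log2 ratio was -4.68 for Itga4 to Itgb7, -3.15 for Itga4 to Itgb1, -1.24 for Itgal to Itgb2 and -0.35 for Itgav to Itgb3.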
